A study of Macaca mulatta with 28 samples.

Results

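Astrocytes clear glutamate from synapses, buffer potassium and water at their endfeet on blood vessels, share ions through gap junctions and secrete lipoproteins and protease inhibitors. Under injury or inflammation they can enter a reactive state, in which intermediate filaments and acute phase proteins are made at higher levels while some of the transport genes fall. The genes described here are 32 symbols that are commonly used to mark astrocytes or their reactive state, chosen by name. Of the 32, 31 were listed among the 16885 named entries of the table and 28 passed the filter of at least 5 counts in at least 3 animals, which 13769 entries passed. SLC6A13, a GABA transporter, was not analysed here.

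The RNA came from punches of the ventral tegmental area (VTA), where midbrain dopamine neurons lie among glia, of 28 male rhesus macaques of the genotype labelled WT, aged 7 to 8.3 years per the study's methods, with 1 bulk library per animal. The 17 drinkers had been induced to drink 4% ethanol, had then had 12 months of open access to it and 3 abstinence periods with renewed access between them, and the 11 controls were calorically yoked or housing controls. Tissue of both arms is labelled 30 days of abstinence, which for the controls names the timepoint only. Per the study's reporting summary, caloric controls drank a maltodextrin solution and housing controls had no drinking procedure. It is not given in the labels which control was yoked and which was a housing control. By their intake, 9 drinkers are labelled Very Heavy, 5 Heavy, 2 Binge and 1 Low. The animals belong to 2 cohorts. Cohort 1 held 8 controls, 4 Heavy, 3 Very Heavy and 1 Low drinker, and cohort 2 held 3 controls, 6 Very Heavy, 1 Heavy and 2 Binge drinkers. Animals are numbered within their category, with Controls 1 to 8 in cohort 1 and Controls 9 to 11 in cohort 2.

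Each entry of the table is 1 Ensembl transcript with 1 gene symbol, so reads placed on a gene's other transcripts do not enter its value. Several defining astrocyte markers had few or no counts, and whether reads on other transcripts account for this was not tested. The listed transcripts of SLC1A2, the main glutamate transporter of forebrain astrocytes, and of CD44, a surface receptor of reactive astrocytes, were at 0 in all 28 animals. That of ALDH1L1, a folate enzyme used to label astrocytes, was at 0 in 26 and held 385 counts in the Low drinker and 22 in Very Heavy 6. AQP4, the water channel of the endfeet, was listed at 0 in 18 animals, GJB6 (connexin 30) in 21 and SPARCL1 (hevin, a secreted synapse-organizing protein) in 19, and the highest count among the 28 libraries was 95 for AQP4 and 41 for GJB6. GFAP, the intermediate filament by which astrocytes are usually stained, had a median of only 84 counts and a range of 2 to 1102. Other markers of the cell type were abundant, with medians of 74810 counts for GLUL, 24586 for KCNJ10, 20136.5 for APOE and 14271 for GJA1. Totals lay between 12303914 and 27338669 counts per animal, of which 36.4% to 60.6% fell on mitochondrial-genome transcripts, and the listed astrocyte transcripts held 0.849% to 1.34% of all counts (median 1.09%). In bulk tissue, fewer cells of a type and less RNA per cell cannot be told apart.

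Levels are given as CPM, the counts scaled to a common library size by TMM normalization, and differences as log2 fold changes. Across the 28 animals the median SD of log2 CPM was 0.518 for the 28 tested members and 0.618 for all tested transcripts. HEPACAM, a cell adhesion protein that anchors MLC1 and connexins at astrocyte junctions, was the steadiest member, with 627 to 993 CPM, an SD of 0.18 on the log2 scale and only 6.07% of tested transcripts below it. KCNJ10, the potassium channel Kir4.1, ran from 861 to 1476 CPM with an SD of 0.19. GLUL, glutamine synthetase, had an SD of 0.22. The members with the widest spread were SPARCL1 (SD 2.67), MLC1 (1.94), ACSBG1 (1.91) and AQP4 (1.87), each of which was at 0 in some animals. GFAP (SD 1.58) and SERPINA3 (1.04) had counts in every animal and were the most variable of the 21 members of that kind. These steady members also had more counts than the variable ones, with medians of 17138 for HEPACAM, 24586 for KCNJ10 and 74810 for GLUL against 84 for GFAP and 200.5 for SERPINA3. It did not separate the roles, since the reactive gene VIM (SD 0.35) was steadier than the homeostatic genes SLC1A3 (0.48) and SLC4A4 (0.65).

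**Figure D1:**
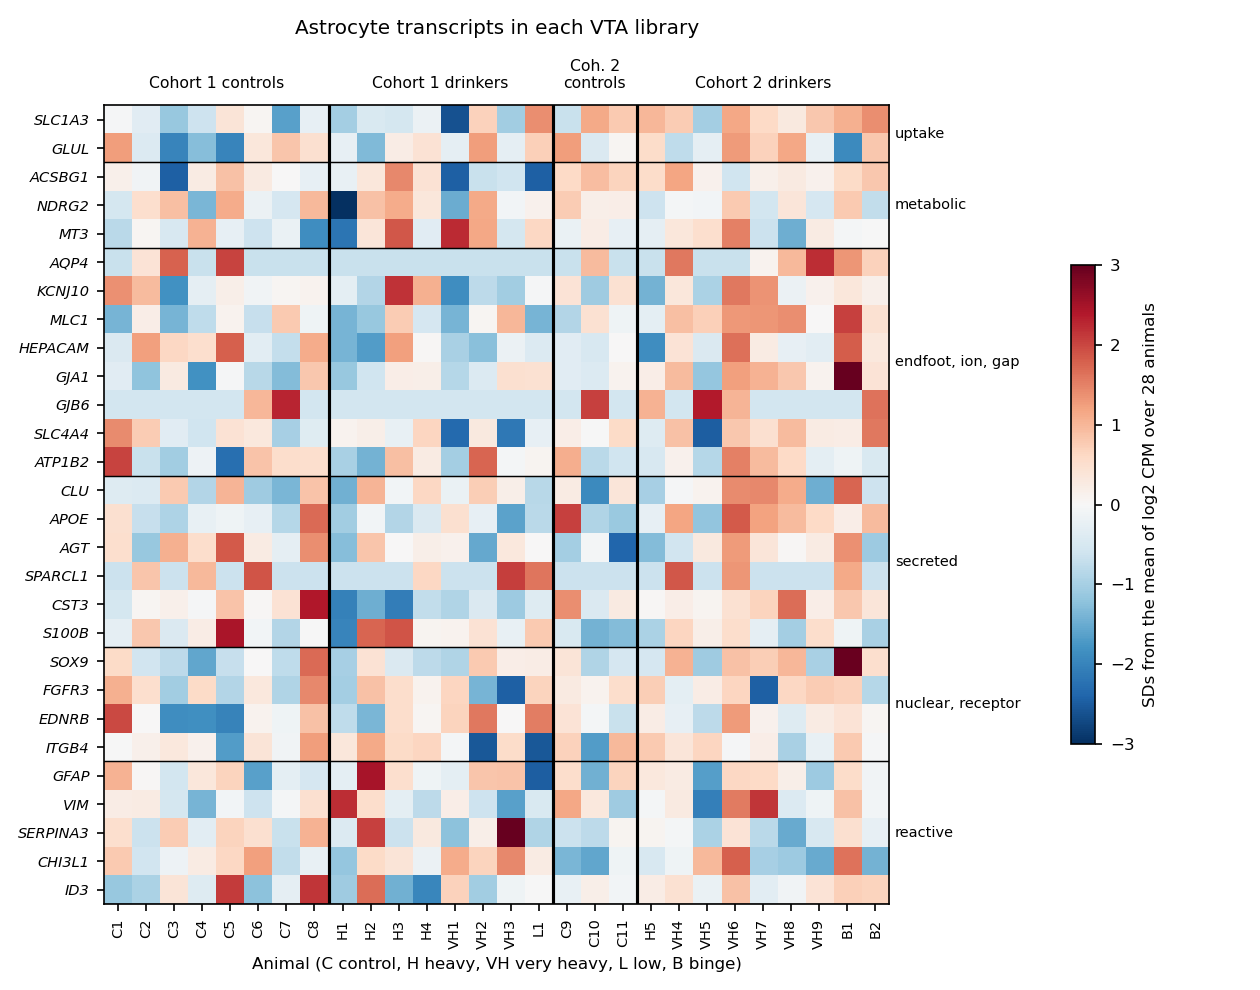
Level of each of the 28 tested astrocyte transcripts (rows, grouped by role) in each of the 28 animals (columns, grouped by cohort and arm), as SDs from the transcript's mean log2 CPM. Flat pale rows (AQP4, GJB6, SPARCL1) are transcripts listed at 0 in most animals, and the dark cells of SERPINA3 in Very Heavy 3, GFAP in Heavy 2 and CST3 in Control 8 are the high single animals described in the text.

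The first comparison asked whether a history of drinking left a difference in these genes over both cohorts. After adjustment over all 13769 transcripts, edgeR's quasi-likelihood test called 0 of the 28 members, as it called 0.00% of all transcripts. At an unadjusted p under 0.05 there were 2 members, GJA1 and MLC1, against 4.57% of all tested. DESeq2 and limma-voom also called 0. GJA1 encodes connexin 43, the main gap junction protein of astrocytes. It had 441 to 737 CPM in the 11 controls (median 589) and 502 to 1169 in the 17 drinkers (median 656). The ranges overlapped and the highest value was that of Binge 1, with a log2 difference of 0.23 ± 0.10 (SE) and an unadjusted p of 0.0351 by edgeR. MLC1, a membrane protein of the endfeet, had 0 to 1.64 CPM in controls and 0 to 9.53 in drinkers. Its log2 difference was 1.89 ± 0.90, with an unadjusted p of 0.0437 by edgeR on counts whose median was 10.5, and both groups included animals at 0. Cohort 2 held 9 of the 17 drinkers and 3 of the 11 controls. With cohort as a covariate the log2 difference was 0.16 for GJA1 (edgeR, unadjusted p = 0.115) and 0.98 for MLC1 (unadjusted p = 0.305). Within cohort 1 and then cohort 2 it was 0.09 ± 0.12 and 0.30 ± 0.17 for GJA1, and 0.34 ± 1.04 and 2.44 ± 1.61 for MLC1, none past an unadjusted p of 0.05. After a correction of each library for transcript GC content 4 members passed that threshold over all animals (MLC1, SOX9, APOE and MT3), against 3.27% of all transcripts, and GJA1 did not. The median log2 difference was 0.06 over the members and 0.00 over all transcripts, and 17 of 28 members were above 0, beside 50.3% of all transcripts.

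Within cohort 1, CST3 was the only member past the adjusted threshold, in a fit that called 0.959% of all transcripts. CST3 encodes cystatin C, a secreted inhibitor of cysteine proteases that astrocytes make in quantity. Its gene lies on chromosome 10 of Mmul_10, chr10:42869247-42873160, on the plus strand. The 8 controls of cohort 1 had 99.4 to 549.7 CPM (median 144, mean 199.9 ± 146, SD) and the 8 drinkers 39.8 to 107.7 (median 75.4, mean 73.4 ± 26.2). Of the drinkers, 6 lay below the lowest control, and 7 controls lay above the highest drinker, so the groups overlapped only in Control 1, Very Heavy 2 and Low 1. CST3 fell by 1.45 ± 0.31 (SE) on the log2 scale, to 0.367 times the control level (edgeR quasi-likelihood, adjusted p = 0.027).

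The CST3 call depended on a few animals and on the fit. Without Control 8, the control with 549.7 CPM, the log2 difference was -1.03 with an adjusted p of 0.0612 by edgeR. The adjusted p was 0.0551 without Control 5 and 0.0546 without Very Heavy 3. With cohort 1 fitted alone it was 0.127, and after the GC correction it was 0.151 with a log2 difference of -1.17. The sign was negative in each of these fits. With other size factors, count filters, DESeq2, limma-voom or no mitochondrial transcripts the adjusted p lay between 0.000408 and 0.0329. CST3 has a GC content of 63.9%, and the libraries differed in how counts followed GC content. The slope of log2 CPM on GC, per 10 percentage points, averaged 0.0670 in controls and -0.0587 in drinkers of cohort 1, and the corrected CST3 value is the one given above. Neuronal markers were set beside it. The summed level of 7 neuron markers, none at 0 throughout, was 2451 to 9015 CPM in cohort 1 controls (median 3890) and 3548 to 17962 in drinkers (median 7452). Of the 6 tested markers 3 were higher at an unadjusted p under 0.05, beside 14.7% of all transcripts in either direction. None of these markers passed after adjustment by edgeR. Their part in the result was not tested.

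The 250 bases before the start of 2 reactive genes in the RefSeq annotation of Mmul_10 are shown because these genes are described next and hold the same short element. The capitals mark ATAAA, searched on the strand of the gene only, within 100 bases of the start, letters of the kind found in TATA boxes, chosen after the sequences were seen.
GFAP, chr16:56180985-56181234, minus strand: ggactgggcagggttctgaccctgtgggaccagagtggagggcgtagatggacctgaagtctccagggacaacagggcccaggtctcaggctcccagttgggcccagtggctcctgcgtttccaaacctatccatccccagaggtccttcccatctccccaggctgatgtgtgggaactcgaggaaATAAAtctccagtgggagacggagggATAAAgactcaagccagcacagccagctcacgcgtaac
CHI3L1, chr1:60687111-60687360, minus strand: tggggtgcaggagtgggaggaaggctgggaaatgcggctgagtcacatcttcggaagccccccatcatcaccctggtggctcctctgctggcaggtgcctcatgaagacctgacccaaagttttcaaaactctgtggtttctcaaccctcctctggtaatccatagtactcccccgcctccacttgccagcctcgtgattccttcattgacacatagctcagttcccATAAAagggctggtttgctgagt
This element was present in that window in 4 of 32 members (12.5%), not all of them reactive genes, and in 9.36% of 20768 protein-coding promoters. The STAT motif TTCNNNGAA, which reads the same on both strands, was in 0 of the 32 windows of 250 bases and in 5.98% of all. These matches describe the letters only.

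Apart from CST3, 3 members were lower in cohort 1 drinkers at an unadjusted p under 0.05, making 4 of 28 with CST3, against 14.7% of all tested transcripts (8.14% lower). HEPACAM had 724 to 991 CPM in controls and 642 to 923 in drinkers, a log2 difference of -0.19 ± 0.09 with an unadjusted p of 0.0421 by edgeR. After the GC correction it was -0.10 ± 0.09 with an unadjusted p of 0.234. AQP4 was above 0 in 3 of 8 controls and in 0 of 8 drinkers, with 2.94 CPM at most. GJB6 was above 0 in 2 of 8 controls and 0 of 8 drinkers. No fold is given for AQP4 and GJB6, since most libraries of both groups were at 0. The remaining endfoot and transport genes did not pass that threshold. The log2 difference was -0.30 ± 0.29 for SLC4A4 (a sodium bicarbonate cotransporter) and 0.34 ± 1.04 for MLC1. It was 0.08 ± 0.12 for GLUL, -0.04 ± 0.10 for KCNJ10, -0.02 ± 0.14 for ATP1B2 (a sodium pump subunit) and 0.06 ± 0.20 for SLC1A3 (the glutamate transporter GLAST).

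The highest levels of 2 reactive genes in cohort 1 came from 1 or 2 animals. GFAP had 0.410 to 9.29 CPM in controls (median 2.54) and 0.106 to 44.1 in drinkers (median 3.72). The high value was that of Heavy 2 and the low value that of the Low drinker, and the other 6 drinkers lay within the range of the controls. SERPINA3, an acute phase inhibitor of serine proteases, had 6.74 to 23.4 CPM in controls and 4.43 to 116 in drinkers, with medians of 15.6 and 10.2. Very Heavy 3 (116 CPM) and Heavy 2 (48.4) stood above all other animals of either cohort, and the other 6 drinkers had 4.43 to 13.5. The log2 differences were 1.32 ± 0.76 for GFAP and 0.92 ± 0.53 for SERPINA3, neither past an unadjusted p of 0.05 by edgeR. CHI3L1 (a secreted glycoprotein of reactive astrocytes) had 40.9 to 90.4 CPM in controls and 34.3 to 98.1 in drinkers, with a log2 difference of 0.15 ± 0.27. VIM, vimentin, differed by 0.08 ± 0.17 and ID3, an inhibitor of transcription factors, by -0.32 ± 0.28. Among all transcripts 48.9% had a difference above 0. Of the 5 tested reactive members 4 were above 0 and none passed the unadjusted threshold. Of the 10 tested homeostatic members 4 were above 0, and 3 (AQP4, GJB6 and HEPACAM) passed it with a difference below 0. Of these, HEPACAM did not pass after the GC correction, and AQP4 and GJB6 were at 0 in most libraries.

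**Figure D2:**
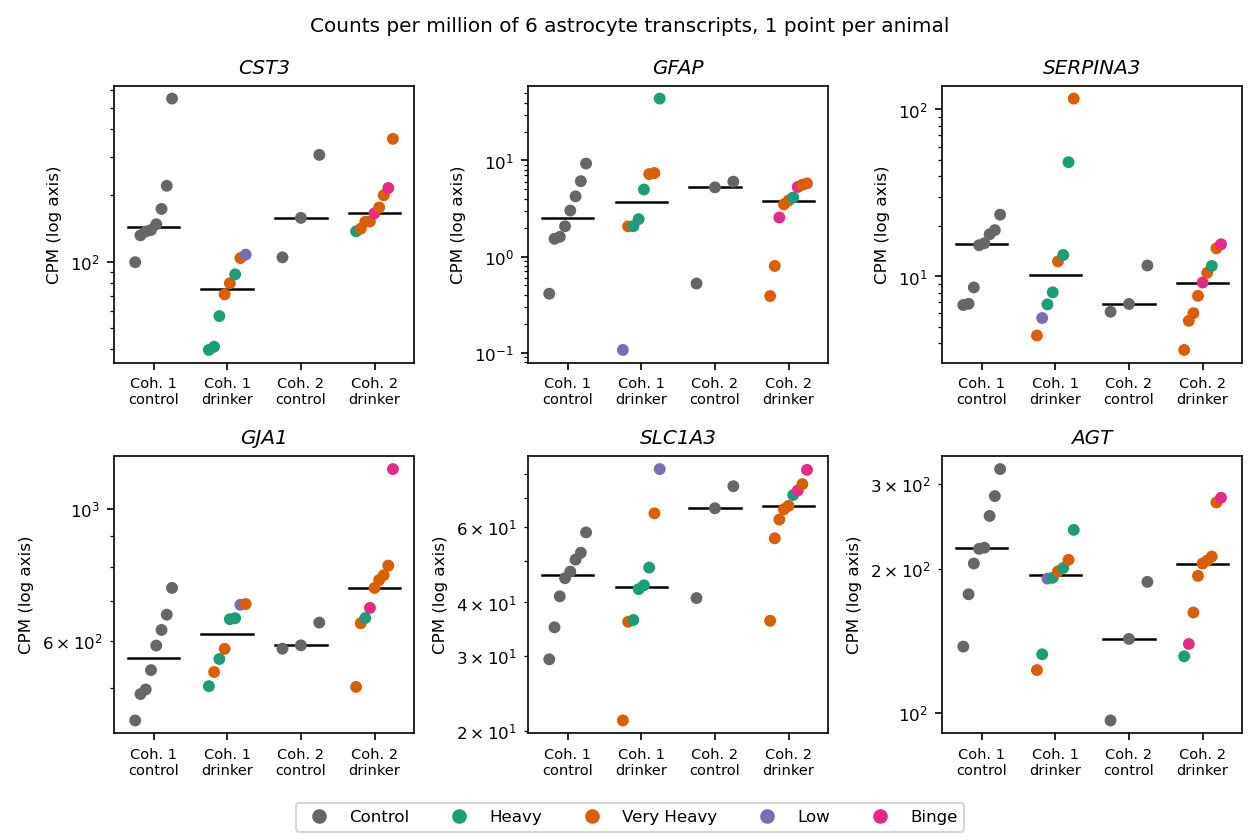
CPM of 6 astrocyte transcripts on log axes, with 1 point per animal coloured by drinking category and a line at the median, for controls and drinkers of each cohort. CST3 is low in 6 of 8 cohort 1 drinkers relative to every control of that cohort, whereas GFAP is high in 1 drinker (44.1 CPM) and SERPINA3 in 2 (116 and 48.4 CPM) above overlapping groups.

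In cohort 2, which held 3 controls, edgeR called 0 of 28 members after adjustment (0.00% of all transcripts) and 0 at an unadjusted p under 0.05, a share of 2.00% among all transcripts. DESeq2 called SPARCL1 there, which was at 0 in all 3 controls and in 6 of 9 drinkers and had 9.72 CPM at most, so no fold is given. The shares above are those of edgeR, and that of DESeq2 is not given here. CST3 had 105 to 305 CPM in controls and 137 to 361 in drinkers, a log2 difference of -0.00 ± 0.41, and 8 of 9 drinkers lay within the range of the controls. AGT, angiotensinogen, the precursor of angiotensin that astrocytes secrete, had 96.7 to 188 CPM in controls (median 143) and 132 to 281 in drinkers (median 205). Its log2 difference was 0.50 ± 0.25. After the GC correction it was 0.49 ± 0.24, and AGT was then the 1 member past an unadjusted p of 0.05 (0.0499 by edgeR), against 2.00% of all transcripts. CHI3L1 had 29.2 to 52.2 CPM in controls and 29.9 to 114 in drinkers, a difference of 0.65 ± 0.38. Drinkers and controls overlapped for both genes. Of the 28 members 21 had a difference above 0 (75%), beside 51.5% of all tested transcripts. Summed neuron markers lay the other way in this cohort, at 3680 to 8862 CPM in controls (median 7635) and 2691 to 4783 in drinkers (median 3902). The median log2 difference of the 6 tested neuron markers was -0.40, with 1 lower at an unadjusted p under 0.05 and 0 called after adjustment by edgeR. Their part in the members' values was not tested.

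The difference between the cohorts in the effect of drinking was tested as an interaction. After adjustment edgeR called 0 of 28 members and 0.0145% of all transcripts, and 3 members passed at an unadjusted p under 0.05, against 9.62% of all tested. They were CST3, with a log2 difference of differences of 1.44 ± 0.53 (adjusted p = 0.354), AGT with 0.79 ± 0.31, and AQP4. DESeq2 called SPARCL1 here too, from the same libraries at 0. CST3 was thus low in the drinkers of cohort 1 and not in those of cohort 2, but the difference of the effects did not pass the adjusted threshold. The median difference of differences was 0.22 over the members, 0.04 over all transcripts and -1.11 over the 6 tested neuron markers, 3 of which were lower at an unadjusted p under 0.05 and 0 after adjustment by edgeR. CST3 had an r of -0.499 with the mean of the neuron markers over the 28 animals, and their part in the result was not tested. For 8 further members the difference was within 2 SE of 0 in both cohorts before the GC correction. The log2 difference in cohort 1 and then in cohort 2 was 0.36 ± 0.18 and 0.06 ± 0.25 for MT3, 0.01 ± 0.12 and 0.23 ± 0.16 for SOX9, 0.05 ± 0.16 and 0.25 ± 0.22 for CLU, and 0.19 ± 0.18 and 0.08 ± 0.24 for EDNRB. It was -0.05 ± 0.31 and -0.27 ± 0.40 for NDRG2, a protein of the differentiated astrocyte, and -0.30 ± 0.29 and 0.14 ± 0.39 for SLC4A4. For the growth factor receptor FGFR3 it was -0.49 ± 0.81 and 0.06 ± 1.07, and for the integrin ITGB4 0.04 ± 0.76 and -0.28 ± 1.00, on median counts of 42 and 35. After the GC correction the cohort 1 difference was 0.57 ± 0.19 for MT3 (edgeR, unadjusted p = 0.00474, adjusted p = 0.233) and 0.31 ± 0.13 for SOX9 (edgeR, unadjusted p = 0.0239, adjusted p = 0.349). With that correction 5 of 28 members passed at an unadjusted p under 0.05 in cohort 1 (AQP4, GJB6, CST3, MT3 and SOX9), against 10.5% of all transcripts.

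In neither cohort was there a member whose drinkers and controls did not overlap (0 of 28), while 0.182% of all transcripts in cohort 1 and 0.625% in cohort 2 had none.

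**Figure D3:**
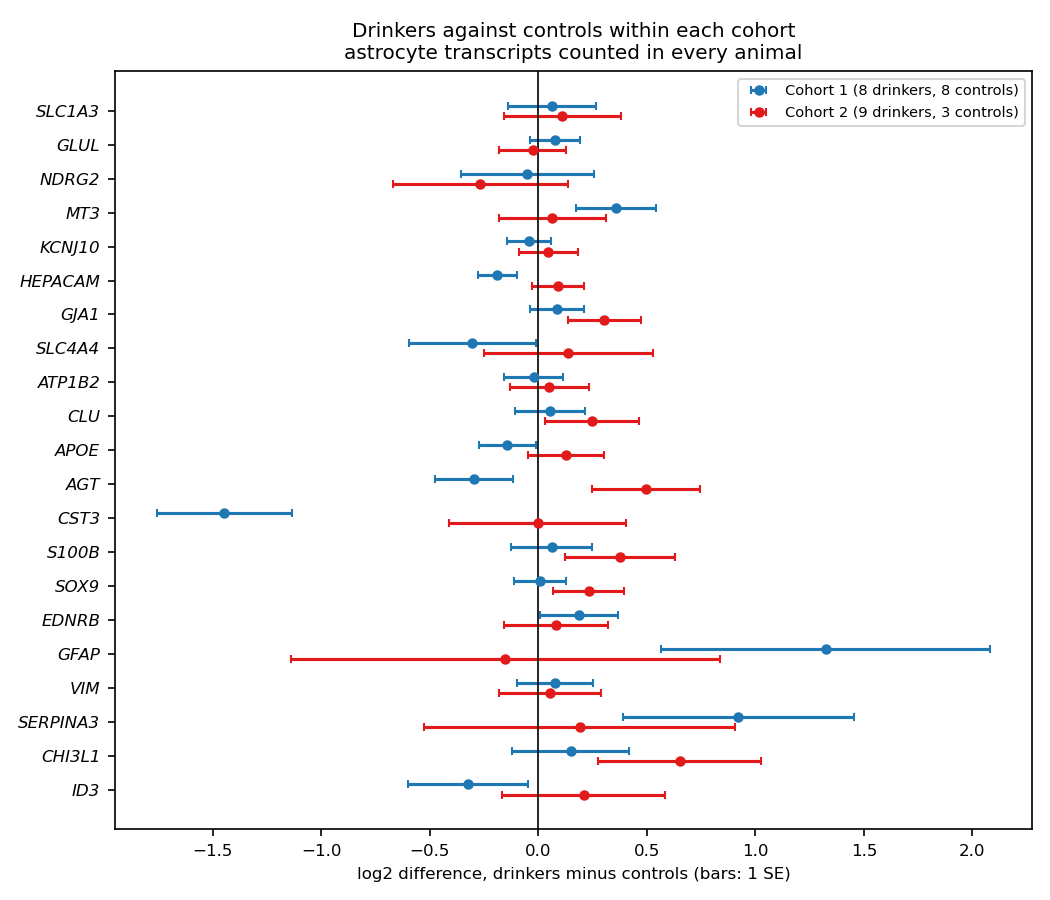
Log2 difference of drinkers minus controls within cohort 1 (blue) and within cohort 2 (red) for the 21 astrocyte transcripts with counts in every animal, with bars of 1 SE from edgeR. For 17 of the 21 transcripts both differences are under 0.5 in size, and CST3 in cohort 1 (-1.45) is the farthest from 0.

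The cohorts were also compared with each other, with drinking as a covariate. The 0 of 28 members that passed after adjustment stood beside 0.0436% of all transcripts, and the 8 that passed at an unadjusted p under 0.05 beside 9.80%. DESeq2 and limma-voom called 0 as well. Of these, 6 were higher in cohort 2 (5.53% of all transcripts). SLC1A3 had 21.2 to 82.0 CPM in the 16 animals of cohort 1 (median 44.7) and 36.2 to 81.6 in the 12 of cohort 2 (median 66.8). Its log2 difference was 0.47 ± 0.16 (edgeR, adjusted p = 0.208), and 1 control and 1 drinker of cohort 2 lay below the median of cohort 1. CST3 was higher by 0.92 ± 0.29, APOE (the main lipid carrier of the brain) by 0.26 ± 0.11 (0.13 after the GC correction, unadjusted p = 0.168) and GJA1 by 0.22 ± 0.10, none past the adjusted threshold. For CST3 the controls of cohorts 1 and 2 averaged 199.9 and 189 CPM and the drinkers 73.4 and 189, so this difference lay in the drinkers and is not independent of the cohort 1 result. AQP4 was above 0 in 3 of 16 animals of cohort 1 and 7 of 12 of cohort 2, and GJB6 in 2 of 16 and 5 of 12.

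The 2 members with lower values in cohort 2 (4.27% of all transcripts) were SERPINA3 and S100B. SERPINA3 had 4.43 to 116 CPM in cohort 1 (median 12.9) and 3.63 to 15.6 in cohort 2 (median 8.42), a log2 difference of -1.26 ± 0.42, and leaving out Very Heavy 3 brought it to -0.66. S100B, a calcium-binding protein of astrocytes, had 283 to 981 CPM in cohort 1 and 333 to 593 in cohort 2, a difference of -0.36 ± 0.15. All 10 tested homeostatic members had a difference above 0, with 4 of them past the unadjusted threshold, of which AQP4 and GJB6 were at 0 in most libraries. The values of ATP1B2 (0.01 ± 0.11), KCNJ10 (0.03 ± 0.08) and HEPACAM (0.05 ± 0.07) were within 1 SE of 0, and that of ATP1B2 turned to -0.01 after the GC correction. In the uncorrected fit, 2 of the 5 reactive members were above 0 and SERPINA3 passed. Among all transcripts 52.8% were above 0. The 6 tested neuron markers had a median log2 difference of -0.54 with 1 above 0, and their part in the members' values was not tested. Cohort 2 held 9 drinkers against 3 controls and most of the Very Heavy drinkers, and cohort also carries whatever else differed in the handling of the animals, which cannot be told apart here.

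Drinking categories were compared in 1 fit with cohort as a covariate. Very Heavy drinkers, Heavy drinkers and their difference share the same controls or animals, so the values are given side by side. Against controls, edgeR called 0 of 28 members in the 9 Very Heavy and 0 in the 5 Heavy drinkers after adjustment, as 0.00% of all transcripts in each, and 0 between Very Heavy and Heavy (0.00%). At an unadjusted p under 0.05 there were 1, 3 and 2 members, against 6.49%, 7.28% and 6.27% of all transcripts. After the GC correction 3 members passed in Very Heavy drinkers against controls (CHI3L1, MT3 and SOX9, against 6.05% of all transcripts) and 3 in Very Heavy against Heavy drinkers (ACSBG1, SPARCL1 and CST3, against 6.63%). Before that correction CHI3L1 was the member for Very Heavy drinkers, with 29.9 to 114 CPM (median 71.9) beside 29.2 to 90.4 in the 11 controls (median 51.7) and a log2 difference of 0.54 ± 0.26. The groups overlapped over most of this range. In the Heavy drinkers CST3 was 39.8, 41.1, 56.6, 87.6 and 137 CPM, and the highest value belonged to the single Heavy drinker of cohort 2. The log2 difference was -1.52 ± 0.39 with an adjusted p of 0.442 by edgeR, whereas DESeq2 gave an adjusted p of 0.00377. In the Very Heavy drinkers, CST3 ran from 71.1 to 361 CPM with a difference of -0.70 ± 0.35. Cohort 1 held 4 of the 5 Heavy drinkers, and cohort 2 held 6 of the 9 Very Heavy drinkers. These CST3 values are therefore not independent of the cohort 1 result, and category and cohort cannot be fully told apart. The median log2 difference of the 6 tested neuron markers was 0.52 in Heavy and -0.27 in Very Heavy drinkers against controls. It was -0.96 in Very Heavy against Heavy drinkers, and their part was not tested.

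GFAP in the Heavy drinkers was 2.07, 2.45, 4.12, 4.99 and 44.1 CPM, beside 0.410 to 9.29 in controls. All but 1 of the Heavy drinkers lay within the controls' range, and the log2 difference of 1.56 ± 0.72 became -0.084 without Heavy 2. AQP4 was at 0 in all 5 Heavy drinkers, in 5 of 9 Very Heavy drinkers and in 7 of 11 controls. ACSBG1, an acyl-CoA synthetase of fatty acid metabolism, had 1.66 to 15.6 CPM in Heavy and 0 to 11.2 in Very Heavy drinkers, a log2 difference of -2.23 ± 0.95 between them that was -1.07 without the cohort covariate. SPARCL1 was above 0 in 1 of 5 Heavy and 3 of 9 Very Heavy drinkers. The 2 Binge drinkers and the Low drinker were too few to compare. Binge 1 had the highest GJA1 of all animals (1169 CPM, next 804), and the Low drinker had the lowest GFAP (0.106 CPM), the highest SLC1A3 (82.0 CPM) and nearly all ALDH1L1 counts.

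Covariation was described by Pearson's r of log2 CPM over the 28 animals. The 378 pairs of tested members had a median r of 0.128, and 69.6% of them were above 0. Over all 94785796 pairs of tested transcripts the median was 0.00825. An r above 0.5 was seen in 18 member pairs (4.76%) and in 1.29% of all pairs. The coefficients all share the same libraries and scaling, and they were taken without the GC correction. Among the 21 members with counts in every animal the median was 0.201, with 17 of 210 pairs above 0.5. Most members therefore shared little of their variation over animals with most others.

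GJA1 and SOX9, a transcription factor that sets astrocyte identity, gave the highest correlation (r = 0.782, Spearman's rho = 0.697, permutation p = 2e-05 and 9e-05, p of r adjusted over 378 pairs 0.00252). It was 0.606 without the 2 animals farthest from the GJA1 median, 0.57 in cohort 1 and 0.909 in cohort 2. GLUL and ATP1B2 had an r of 0.75 and a rho of 0.768 (permutation p = 3e-05 and 2e-05, adjusted 0.00283), with 0.679 without the 2 farthest animals, 0.856 in cohort 1 and 0.557 in cohort 2. ATP1B2 and EDNRB, the endothelin B receptor, had an r of 0.732 and a rho of 0.658 (permutation p = 2e-05 and 0.00013, adjusted 0.00252), with 0.609, 0.766 and 0.637 in the same order. EDNRB also followed GLUL, with an r of 0.717 over all animals, 0.91 in cohort 1 and only 0.242 in cohort 2. Read after the coefficients were seen, these pairs form 2 sets, GJA1 with SOX9 and CLU (clusterin, a secreted chaperone) and GLUL with ATP1B2 and EDNRB. SLC1A3 followed SLC4A4 (r = 0.652, rho = 0.539), with 0.508 without the 2 animals farthest from the SLC1A3 median. APOE followed CST3 (0.602), which held at 0.569 in cohort 1 and 0.598 in cohort 2. The GC contents of APOE and CST3 are 67.4% and 63.9%, and the part of GC content in their r was not tested. In all, 9 of 378 pairs had an adjusted p under 0.05, each with r above 0.

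The pairs with the lowest r were AQP4 with GLUL, ATP1B2 with ID3, and GLUL with AGT. AQP4 was at 0 in 18 animals, so its values form separate clusters and no coefficient is given for it. ATP1B2 and ID3 had an r of -0.455 and a rho of -0.422 (permutation p = 0.0146 and 0.0262, adjusted 0.175). This was -0.575 in cohort 1 and 0.0249 in cohort 2, and -0.269 without the 2 farthest animals. GLUL and AGT had an r of -0.403 and a rho of -0.317 (permutation p = 0.0337 and 0.0999, adjusted 0.264), with -0.497 in cohort 1, -0.246 in cohort 2 and -0.232 without the 2 farthest animals. Neither passed the adjusted threshold.

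Homeostatic and reactive members were compared among those with counts in every animal, which leaves out AQP4, GJB6 and MLC1. The 35 pairs of 1 homeostatic and 1 reactive member had coefficients on both sides of 0, from -0.455 to 0.407 with a median of 0.0716. Of these, 20 were above 0, 3 were below -0.3 (ATP1B2 with ID3, GLUL with ID3 and SLC4A4 with CHI3L1) and 0 were above 0.5. The 21 homeostatic pairs had a median of 0.286 with 6 above 0.5, and the 10 reactive pairs a median of 0.182 with a highest value of 0.465. Among reactive genes the coefficient of SERPINA3 was 0.465 with CHI3L1 and 0.46 with GFAP, each with a p adjusted over the 378 pairs of 0.175 by permutation. Without the 2 farthest animals these were 0.383 and 0.285, and Heavy 2 was high for both SERPINA3 and GFAP. VIM followed APOE (0.533) more than any reactive gene. GFAP was closest to CLU (0.52).

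**Figure D4:**
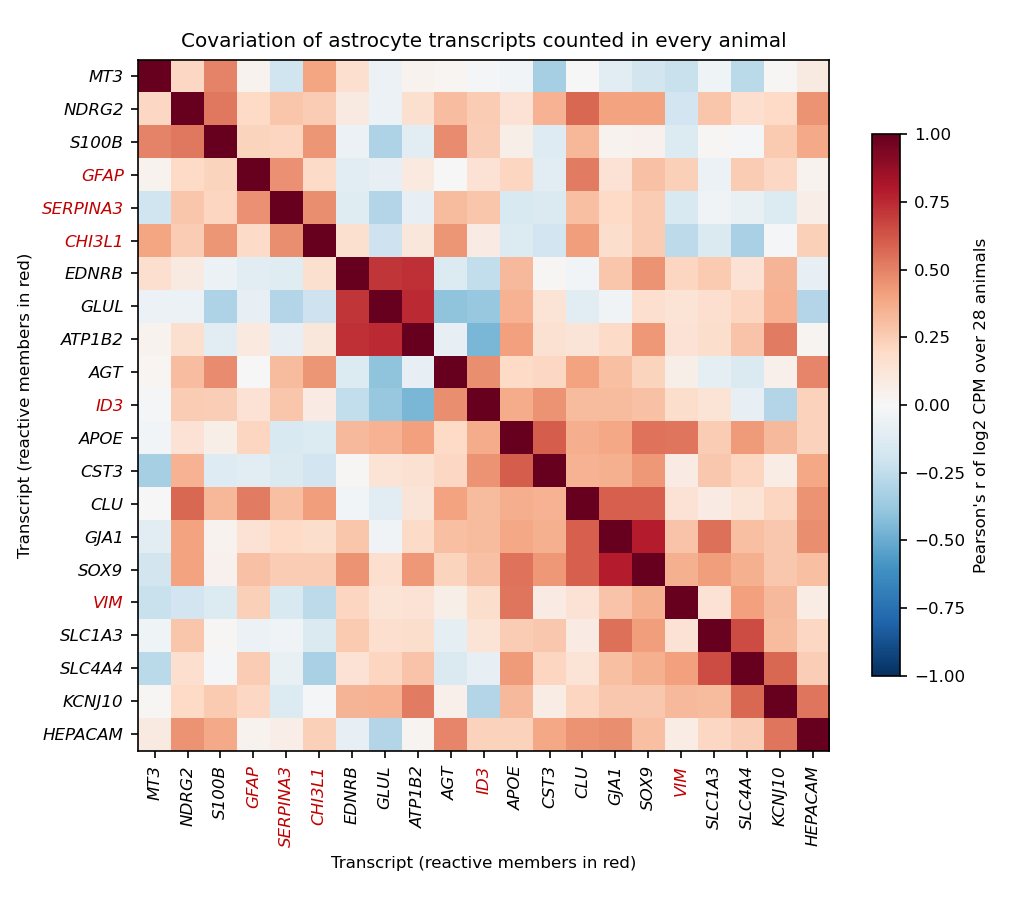
Pearson's r of log2 CPM over 28 animals for the 21 astrocyte transcripts with counts in every animal, ordered by average linkage, with reactive members in red. The dark blocks are EDNRB, GLUL and ATP1B2 (r of 0.717 to 0.75) and GJA1 with SOX9 (0.782), and the reactive genes lie in several places along the order.

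The member whose level followed the mean of the other members best was SOX9 (r = 0.738), followed by GJA1 (0.685), APOE (0.579), CLU (0.572) and HEPACAM (0.565). The GC contents of these members are 67.9%, 44.1%, 67.4%, 56.6% and 55.7% in that order, and the part of GC content was not tested. The lowest r were those of ITGB4 (0.0333), GLUL (0.0261), MT3, a zinc-binding metallothionein (-0.00339), and GJB6 (-0.211), which was at 0 in 21 animals. The member mean had an r of -0.572 with the mean of 6 neuron markers, 0.412 with endothelial, 0.394 with oligodendrocyte precursor, 0.314 with microglial, 0.223 with oligodendrocyte and 0.0507 with dopamine neuron markers. HEPACAM was the farthest below 0 with neuron markers (r = -0.687). Some members followed markers of another cell type more closely than the mean of the other members. These were APOE (0.62) and VIM (0.52) with endothelial and S100B (0.536) with oligodendrocyte markers. With oligodendrocyte precursor markers they were SLC1A3 (0.554), ACSBG1 (0.551) and SLC4A4 (0.529). The 10 transcripts outside the list with the highest r with the member mean were DAG1 (0.792), SNX33 (0.784), ITPKB (0.775), TIMP3 (0.774), CTNND1 (0.746), SLC39A12 (0.741), SNTB1 (0.737), GAREM2 (0.728), HES1 (0.717) and FAM89A (0.714), over 28 animals.

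Further astrocyte genes and reactive genes were taken from lists of 30 and 22 symbols that share none with the members. Of these, 27 and 19 passed the filter, and edgeR called 0 of either in any of the 8 comparisons after adjustment. At an unadjusted p under 0.05, 1 of 27 and 1 of 19 were higher in drinkers over all animals. In cohort 1 there were 5 of 27 (3 higher, 2 lower) and 1 of 19 (higher), in cohort 2 there were 2 of 27 and 1 of 19 (all higher), and between the cohorts 6 of 27 (5 higher in cohort 2) and 3 of 19 (1 higher). The background shares are those given above for each comparison. The median log2 difference in cohort 1 was 0.01 for the astrocyte list and -0.11 for the reactive list, beside -0.01 over all transcripts. In cohort 2 it was 0.31 for the astrocyte list (21 of 27 above 0) and 0.18 for the reactive list, beside 0.01 over all transcripts, and for the interaction 0.34 and 0.06, beside 0.04. Markers of other cell types in cohort 1 gave, at the same unadjusted threshold, 1 lower of 7 oligodendrocyte and 1 lower of 3 oligodendrocyte precursor markers, and 0 of 6 dopamine, 6 microglial, 6 endothelial, 4 meningeal, 2 ependymal or choroid and 1 blood markers, with 0 called by edgeR after adjustment in each list. Summed dopamine neuron markers ran from 19.5 to 1648 CPM over the 28 punches.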

How the data were processed

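RNA of 28 VTA punches was prepared with a NuGEN Universal Plus mRNA kit, 1 library per animal. Per the study's methods and the submitters' processing notes, the authors trimmed reads with Trim Galore 0.6.7, quantified them with Salmon 1.9.0 against Mmul_10 and deposited estimated counts without normalization, 1 transcript per gene symbol. The annotation release is not given in the sources used here. The 1 entry without a symbol held 1.15e-05% of counts and was left out, and no column was left unused.

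Counts were rounded. Transcripts that reached 5 counts in 3 or more animals were tested with edgeR 4.0.16 (R 4.3.3, TMM, quasi-likelihood, Benjamini-Hochberg over all transcripts, threshold 0.05), and an SE is the log2 difference divided by the square root of F. Within-cohort contrasts and their difference came from 1 fit of 4 groups over all 28 animals, and categories from a fit with cohort. Log2 CPM used a prior count of 2. Correlations used Python 3.11.15 and 100000 permutations, two-sided, for which 1e-05 is the smallest p. Scripts were tested on simulated data. Of changes of 1 on the log2 scale, 74% were recovered over all animals, 61% in cohort 1 and 77% between the cohorts. For changes of 2 these shares were 87%, 90% and 93%. Calls on unchanged transcripts numbered 29, 12 and 26 in the same order. Each animal is a separate replicate. The most similar pair of libraries had 1.76% identical counts. Promoters and GC content came from RefSeq on Mmul_10. A result on 1 promoter is not reported here.

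Groups came from the labels. Cohorts came from the study's Source Data and methods, and 3 controls were placed in cohort 2 because the other 8 were those of cohort 1. The members and all lists were chosen with earlier results of these data known. Named genes are the members, list genes past the adjusted threshold, the 3 pairs with the highest and the 3 with the lowest r, and the 10 transcripts most like the member mean. Alternatives were DESeq2 1.42.0 (Wald test, and its size factors), limma 3.58.1 (voom), other count filters, no mitochondrial transcripts, cohort, oligodendrocyte markers or 1 surrogate variable (sva 3.50.0) as covariate, and leaving out animals. The GC correction, cohort 1 alone and most omissions of single animals were added after seeing the data.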

Additional observations from a re-analysis of the deposited data

Results flagged for a closer look

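The 28 tested members were screened for single animals far from the rest of their group in cohort 1 controls, cohort 1 drinkers and cohort 2 drinkers, on the log2 scale, with Dixon's 95% critical value. Of 84 groups 7 held such an animal, where chance alone flags about 5% of groups. CST3 was high in Control 8 among cohort 1 controls (549.7 CPM) and in Very Heavy 8 among cohort 2 drinkers (360.9 CPM). Very Heavy 5 was the lowest cohort 2 drinker for both SLC1A3 (36.24 CPM) and SLC4A4 (9.628 CPM). The r of this pair of transporters over all animals includes Very Heavy 5. Low values near the counting floor were those of FGFR3 in Very Heavy 7 among cohort 2 drinkers (0 CPM), ACSBG1 in Control 3 (0 CPM) and ITGB4 in Control 5 (0.1315 CPM), both among cohort 1 controls. SERPINA3 in Very Heavy 3 did not exceed the critical value, since Heavy 2 was also high.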

How the results depend on the processing

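The counts of called members were 0 under every alternative run for drinkers against controls over all animals, cohort 2 against cohort 1, Very Heavy drinkers against controls and Very Heavy against Heavy drinkers. In cohort 1 the count of 1 (CST3) became 0 with cohort 1 alone and 0 after the correction for GC content, and ranged from 0 to 1 when single animals were left out (0 without Control 5, Control 8 or Very Heavy 3). The transcripts called in that comparison fell from 132 to 5 with cohort 1 alone and to 5 after the GC correction, and to 39, 43 and 38 without those 3 animals. DESeq2 gave 1 member (SPARCL1) in cohort 2, 1 (SPARCL1) for the interaction and 1 (CST3) for Heavy drinkers against controls, where edgeR gave 0. The shares of all transcripts that DESeq2 called in these comparisons are not given here, so these counts have no background beside them. The log2 difference of GFAP in Heavy drinkers ranged from -0.084 (without Heavy 2) to 1.84 (without Heavy 1). The median r of member pairs, 0.128 (jackknife SE 0.044), was 0.0756 in cohort 1 alone and 0.229 in cohort 2 alone, and 0.113 to 0.139 on residuals, variance stabilized counts or ranks. The causes were not tested. No paired analysis was possible because the labels give no replicate numbers shared between groups. Per the study's reporting summary each caloric control was assigned a drinker to be yoked to, but the labels do not give these pairs. Cohort 2 with 3 controls and transcripts with few counts in most animals set the limits of these comparisons.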
